A study of Mus musculus with 19 samples.

Results

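The genes described here are 8 genes of astrocyte membrane transport and identity: the connexins Gjb6 and Gja1, the water channel gene Aqp4, the potassium channel gene Kcnj10, the glutamate transporter genes Slc1a2 and Slc1a3, and the marker genes Aldh1l1 and Gfap. They were chosen by symbol, and 8 of 8 had counts among the 14443 symbols counted. Poly(A) RNA of mouse locus coeruleus, the brainstem nucleus of noradrenergic neurons that promote wakefulness, was sequenced in 19 libraries, described by the labels as biological replicates. The groups were WT_S6 (control mice that slept normally, n = 4), WT_SD6 (control mice kept awake for 6 h, n = 5), CnB1KO_S6 (n = 5) and CnB1KO_SD6 (n = 5), the last a pair of groups from mice labelled CnB1KO, in which the gene of calcineurin's regulatory subunit is targeted. Calcineurin is a phosphatase activated by calcium. All 4 groups are described as taken 4 weeks after injection of an AAV that carries Cre under the hSyn promoter, which is active in neurons, so the deletion is not aimed at the astrocytes whose genes are described here. The labels give the mice as ABC-Ctrl (WT) and ABC-CnB1KO (KO). They give no age, sex or day of collection, and they say neither what ABC stands for nor whether the genotypes are littermates.

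Astrocytes are coupled to each other by gap junctions built from connexins, and through them share ions and metabolites. Their processes take up glutamate and potassium released by active neurons, and their endfeet on blood vessels carry water and potassium channels. In the locus coeruleus, astrocytes surround the noradrenergic neurons and are among the targets of the noradrenaline they release.

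Library totals ran from 3887298 to 7903253 counts, the lowest in CnB1KO_S6 library 13 and the highest in WT_SD6 library 10. Members held 300 to 6194 counts per library, the lowest being Gjb6 in library 13. Ppp3r1, which encodes CnB1, stood at 161 ± 4.08 CPM in WT_S6 and 129 ± 13.2 in CnB1KO_S6, and at 152 ± 10.9 in WT_SD6 and 133 ± 6.73 in CnB1KO_SD6 (CPM, counts scaled to the TMM-adjusted library size; SD). Averaged over sleep states it was 1.2-fold lower in CnB1KO (edgeR adjusted p = 0.00758), and in CnB1KO_S6 library 13 it was at 152.3 CPM, against 120.4 to 126.6 in the other 4 libraries of that group. The noradrenergic marker genes were detected in every library, with a summed level of 664.3 to 1678 CPM over the 9 of 10 markers with counts, and 10 markers of cerebellar granule cells, a neighbouring tissue, summed to 364.4 to 2579 CPM. Fewer astrocytes and less of an RNA per astrocyte cannot be told apart in such tissue libraries.

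Per length of transcript, in deposited FPKM (fragments per kilobase of transcript, scaled to the mapped total), the order of the 8 genes in WT_S6 was Slc1a2 (66.62 ± 2.433), Kcnj10 (59.54 ± 5.754), Slc1a3 (58.96 ± 2.901), Gja1 (53.42 ± 2.657), Aqp4 (48.89 ± 2.031), Gfap (47.2 ± 4.977), Gjb6 (32.15 ± 1.303) and Aldh1l1 (24.83 ± 1.068; SD, n = 4). The ranges of neighbours overlapped in WT_S6 from Slc1a2 down to Gfap, and were apart between Gfap and Gjb6 and between Gjb6 and Aldh1l1. Of all 19 libraries, Gjb6 was above Aldh1l1 in 19 and below Gfap in 14, whereas Slc1a3 was above Gja1 in only 11. Gjb6, the lower of the 2 connexins by FPKM, stood at 0.602 ± 0.0083 of the FPKM of Gja1 in WT_S6. Mean counts per kilobase of all annotated exons over the 19 libraries gave the other order, 221.1 for Gjb6 and 123.5 for Gja1. They also put Kcnj10 (468.8) above Slc1a2 (412.5), so the order per length depends on the measure.

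Gjb6 and Gja1 encode the 2 gap junction connexins that astrocytes are best known for. Gjb6 lies on chromosome 14 (57123303 to 57133611, minus strand, GRCm38, GENCODE M21) and Gja1 on chromosome 10 (56377330 to 56402513, plus strand). Their upstream sequences are shown because the levels of these 2 genes parted after sleep deprivation. RefSeq (GRCm38.p6) lists 7 of the 8 members in the promoter table used, all but Aqp4, and the 250 bases before the RefSeq start are given 5′ to 3′ on the gene's strand, chr14:57133612-57133861 (minus strand) for Gjb6 and chr10:56377050-56377299 (plus strand) for Gja1, with motif matches in capitals.
Gjb6: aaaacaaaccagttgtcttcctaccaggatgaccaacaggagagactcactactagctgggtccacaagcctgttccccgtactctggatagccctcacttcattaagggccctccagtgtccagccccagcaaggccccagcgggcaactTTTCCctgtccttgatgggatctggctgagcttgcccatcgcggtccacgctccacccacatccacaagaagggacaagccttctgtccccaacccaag
Gja1: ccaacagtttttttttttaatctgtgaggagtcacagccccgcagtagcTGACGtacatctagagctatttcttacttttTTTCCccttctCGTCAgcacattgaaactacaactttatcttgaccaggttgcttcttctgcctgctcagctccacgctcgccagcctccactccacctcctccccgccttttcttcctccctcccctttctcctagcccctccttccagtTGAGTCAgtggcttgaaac
The motifs were searched on both strands. The Gjb6 window held 1 match, an NFAT core (GGAAA, on the opposite strand as TTTCC, 99 to 95 bases before the start), a motif present in 55.6% of 32851 RefSeq promoter windows of that length. NFAT factors are classical substrates of calcineurin. The Gja1 window also held 1 NFAT core (170 to 166 bases before the start), with 1 AP-1 site (TGANTCA, read here as TGAGTCA, 19 to 13 bases before the start; in 6.75% of windows) and 2 cyclic AMP response half-sites (TGACG; in 17.8%). The glucocorticoid response half-site (AGAACA), found in 16.1% of windows, was in neither. Nor was the E-box (CACGTG, 6.02% of windows), the GC box (GGGCGG, 32.7%), the CCAAT box (33.8%) or the TATA box (TATAAA, 12.4%). The full glucocorticoid response element, in 0.00913% of windows, had no match in either, which says only that these letters are not in the windows.

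Gjb6 rose after sleep deprivation in both genotypes, by about the same factor. In WT_S6 it measured 75.34, 73.45, 72.26 and 69.88 CPM. In WT_SD6 it measured 98.97, 82.93, 92.36, 111.1 and 109.2 CPM. Every deprived WT library was above every WT library after sleep, and the 4 sleeping libraries lay close together while the deprived ones spread. The change was 1.36-fold (log2 0.44 ± 0.08 SE, edgeR quasi-likelihood adjusted p = 0.00529). In CnB1KO_S6 Gjb6 measured 79.04, 89.23, 81.88, 82.01 and 88.74 CPM. In CnB1KO_SD6 it measured 107.7, 99.56, 121.6, 111.9 and 113.9 CPM. Here too the groups did not overlap, and the change was 1.32-fold (log2 0.40 ± 0.07 SE, edgeR adjusted p = 0.00717). In WT the call was lost when only the 2 WT groups were fitted (1 of 33 alternatives, adjusted p = 0.0697, log2 0.44).

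Gjb6 was the 1 member of 8 called after deprivation in WT, where 1.14% of all genes were called, and the 1 of 8 called in CnB1KO, where 0.692% were. Its sleeping and deprived libraries were fully apart, which held for no other member, and for 5.21% of all genes in WT and 2.66% in CnB1KO. Averaged over genotypes it rose 1.34-fold (log2 0.42 ± 0.05 SE, edgeR adjusted p = 6.02e-05), again the 1 member called of 8, with 4.69% of all genes called. The difference between the genotypes in its response was log2 -0.05, with a 95% interval of -0.26 to 0.17 and an edgeR adjusted p of 1.0. No member was called for that interaction (0 of 8, 0 at an unadjusted p under 0.05, also 0 with limma voom and DESeq2), and over all genes 0 were called by edgeR (0.0%), 0 by limma voom and 1 by DESeq2, with 287 (1.99%) at an unadjusted p under 0.05 in edgeR.

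**Figure D1:**
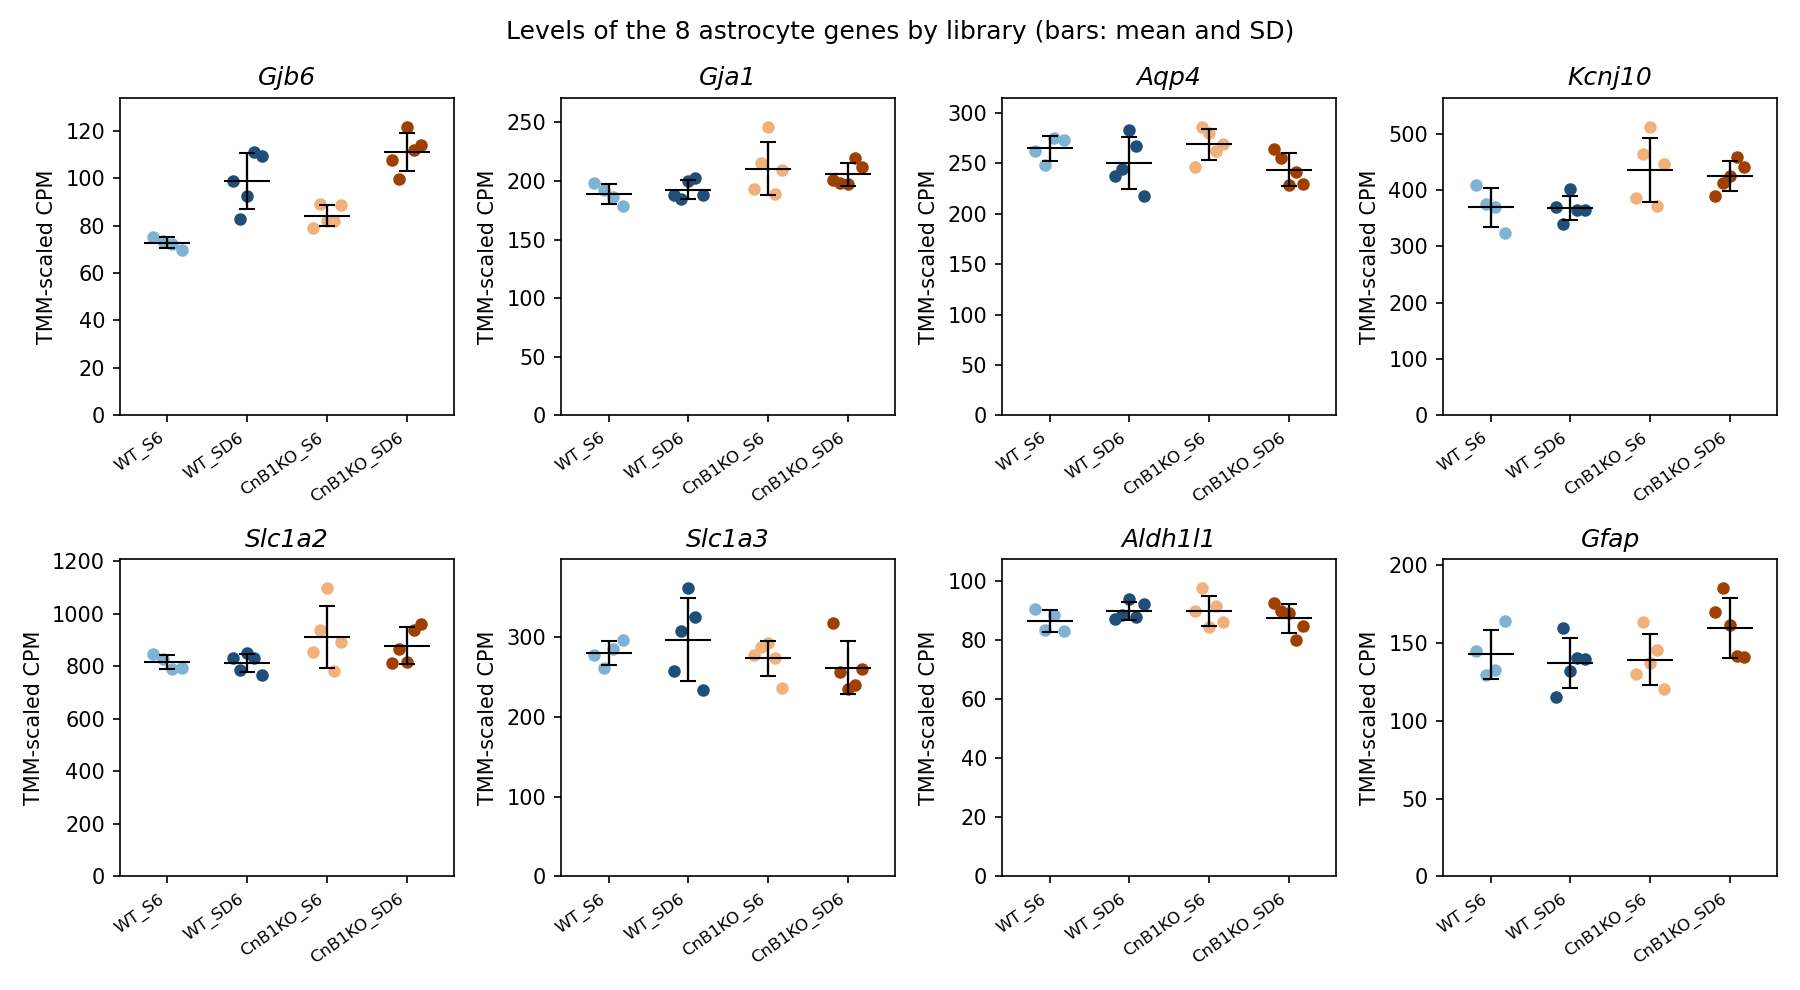
Level of each of the 8 genes (TMM-scaled CPM, linear axis from 0) in each of the 19 libraries by group, with 1 point per library and the mean and SD as bars. Gjb6 lies between 69.88 and 75.34 CPM in WT_S6 and between 82.93 and 111.1 CPM in WT_SD6, while the groups of the other 7 genes overlap.

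Gja1 did not follow Gjb6. It measured 198.3, 192.7, 185.9 and 178.2 CPM in WT_S6 and 187.6, 184.4, 199.8, 202.8 and 188.4 CPM in WT_SD6. The 2 groups overlapped and differed by log2 0.03 (95% interval -0.11 to 0.16, edgeR adjusted p = 0.935). In CnB1KO_S6 it measured 193.5, 215.3, 246.2, 188.9 and 209.1 CPM, the highest in library 13, and in CnB1KO_SD6 201.1, 198.1, 197.6, 219.5 and 212.2 CPM. The change there was log2 -0.03 (95% interval -0.16 to 0.10, edgeR adjusted p = 1.0), so that in both genotypes the upper bound for Gja1 lay below the lower bound for Gjb6 (0.28 in WT and 0.25 in CnB1KO).

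The ratio of Gjb6 to Gja1 within a library does not depend on how the libraries are scaled. The count ratio was 0.386 ± 0.0059 in WT_S6, 0.514 ± 0.0558 in WT_SD6, 0.403 ± 0.0404 in CnB1KO_S6 and 0.540 ± 0.0448 in CnB1KO_SD6 (SD). The lowest WT_SD6 library was at 0.450 and the highest WT_S6 library at 0.392. The lowest CnB1KO_SD6 library was at 0.5025 and the highest CnB1KO_S6 library at 0.434, so deprived and sleeping libraries did not overlap in either genotype. The ratio was 1.33-fold higher after deprivation in WT (exact permutation test, 2-sided, p = 0.0159 over 126 regroupings, where 0.00794 is the smallest possible, n = 4 and 5). It was 1.34-fold higher in CnB1KO (exact permutation p = 0.00794 over 252 regroupings, the smallest possible, n = 5 and 5). Both had an adjusted p of 0.0317 over the 4 comparisons, in these exact permutation tests. In WT the call was lost without any 1 of the 9 libraries (log2 0.36 to 0.45, adjusted p = 0.0571 to 0.0714, exact permutation tests with fewer regroupings). Without a WT_SD6 library the fewer regroupings left no reachable adjusted p under 0.05, so those fits cannot say whether the call holds. In CnB1KO the call held without any 1 of the 10 (log2 0.36 to 0.45, adjusted p = 0.0317, exact permutation tests). Between genotypes the ratio differed by log2 0.06 after sleep and 0.08 after deprivation (exact permutation p = 0.532 and 0.413). CnB1KO_S6 library 13 held the lowest ratio of its group (0.333), and without it the comparison after sleep gave log2 0.12 with an adjusted p of 0.0381 in the exact permutation test. Over the 19 libraries log2 counts followed the log2 library total with a slope of 0.998 for Gjb6 and 0.69 for Gja1. The part of depth and of cell makeup in the ratio was not tested. The pair was chosen with earlier results of these data known.

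**Figure D2:**
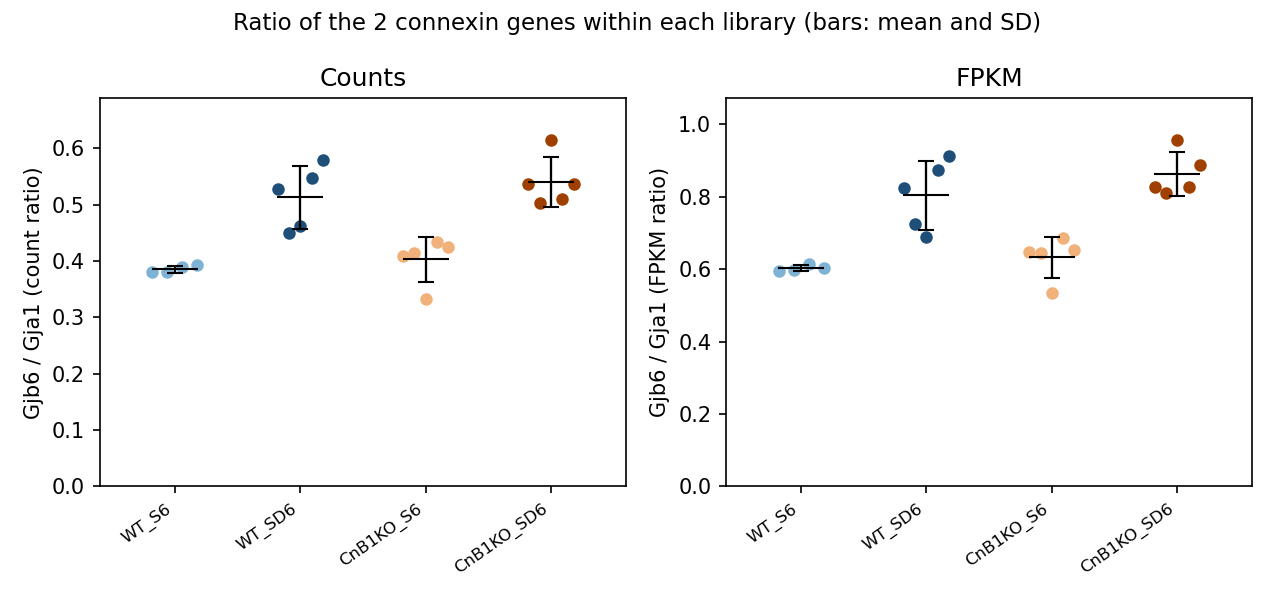
Ratio of Gjb6 to Gja1 within each library, from counts (left) and from FPKM (right), with 1 point per library and the mean and SD as bars (linear axes from 0). In both units the deprived libraries of each genotype lie above its sleeping libraries.

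Of the other connexin genes, 7 of 16 had counts. After deprivation edgeR called 0 of the 7 in either genotype, and 0 had an unadjusted p under 0.05, where 11.6% of all genes did in WT and 9.69% in CnB1KO. Their median log2 change was -0.088 in WT and -0.002 in CnB1KO, and that of all genes 0.001 and -0.006. In the gene's overall pattern, the 5 genes most like Gjb6 over the 19 libraries, of 13317 ranked by Pearson's r of log2 CPM, were Sdc4 (r = 0.965), Pglyrp1 (0.955), Mfsd2a (0.951), Cbs (0.934) and Map3k6 (0.925). These r values describe libraries that share the deprivation contrast. Sdc4 encodes a syndecan proteoglycan, Mfsd2a a lipid transporter of brain endothelium, and Cbs an enzyme of sulphur amino acid metabolism found in astrocytes. Map3k6 had a log2 change of 1.31 after deprivation in each genotype (edgeR adjusted p = 0.00946 in WT and 0.00544 in CnB1KO), Mfsd2a 0.80 and 0.76 (0.013 and 0.0139), and Sdc4 0.30 and 0.32 (0.0471 and 0.0345). Pglyrp1 passed in WT alone (log2 0.71, edgeR adjusted p = 0.0103; 0.52 and 0.0587 in CnB1KO), and Cbs in neither genotype (0.35 and 0.32, adjusted p = 0.062 and 0.0939).

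Aqp4 encodes the main water channel of astrocyte endfeet. It lies on chromosome 18 (15389496 to 15410982, minus strand). It measured 262.6, 248.4, 275.3 and 273.0 CPM in WT_S6 and 237.5, 244.0, 283.3, 267.7 and 218.0 CPM in WT_SD6. It measured 246.7, 286.3, 279.8, 262.4 and 269.2 CPM in CnB1KO_S6 and 264.7, 255.4, 228.5, 241.4 and 229.2 CPM in CnB1KO_SD6. Means after deprivation were lower in both genotypes, but the groups overlapped in each. The log2 differences were -0.08 ± 0.07 in WT and -0.14 ± 0.07 in CnB1KO (SE, edgeR adjusted p = 0.742 and 0.5), and -0.11 ± 0.05 over both (adjusted p = 0.22). With the noradrenergic marker score as a covariate the averaged difference passed (adjusted p = 0.0338), the 1 of 32 alternatives in which it did. Of 14 measured genes of the endfoot and of Aqp4's membrane partners, 1 passed in any of the 7 comparisons: Lamb2, a laminin chain of the vascular basement membrane, was higher in CnB1KO averaged over sleep states (1.16-fold, edgeR adjusted p = 0.0296), where 3.09% of all genes were called. Lamb2 stood at 74.28 ± 1.159 CPM in WT_S6 and 88.92 ± 8.718 CPM in CnB1KO_S6, and after deprivation at 76.42 ± 6.352 CPM in WT and 85.66 ± 6.868 CPM in CnB1KO (SD). The ranges were apart after sleep and overlapped after deprivation (69.66 to 83.78 and 77.25 to 95.55 CPM). In the same comparison 6 of 10 endothelial markers were called higher, and their part in the Lamb2 difference was not tested.

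**Figure D3:**
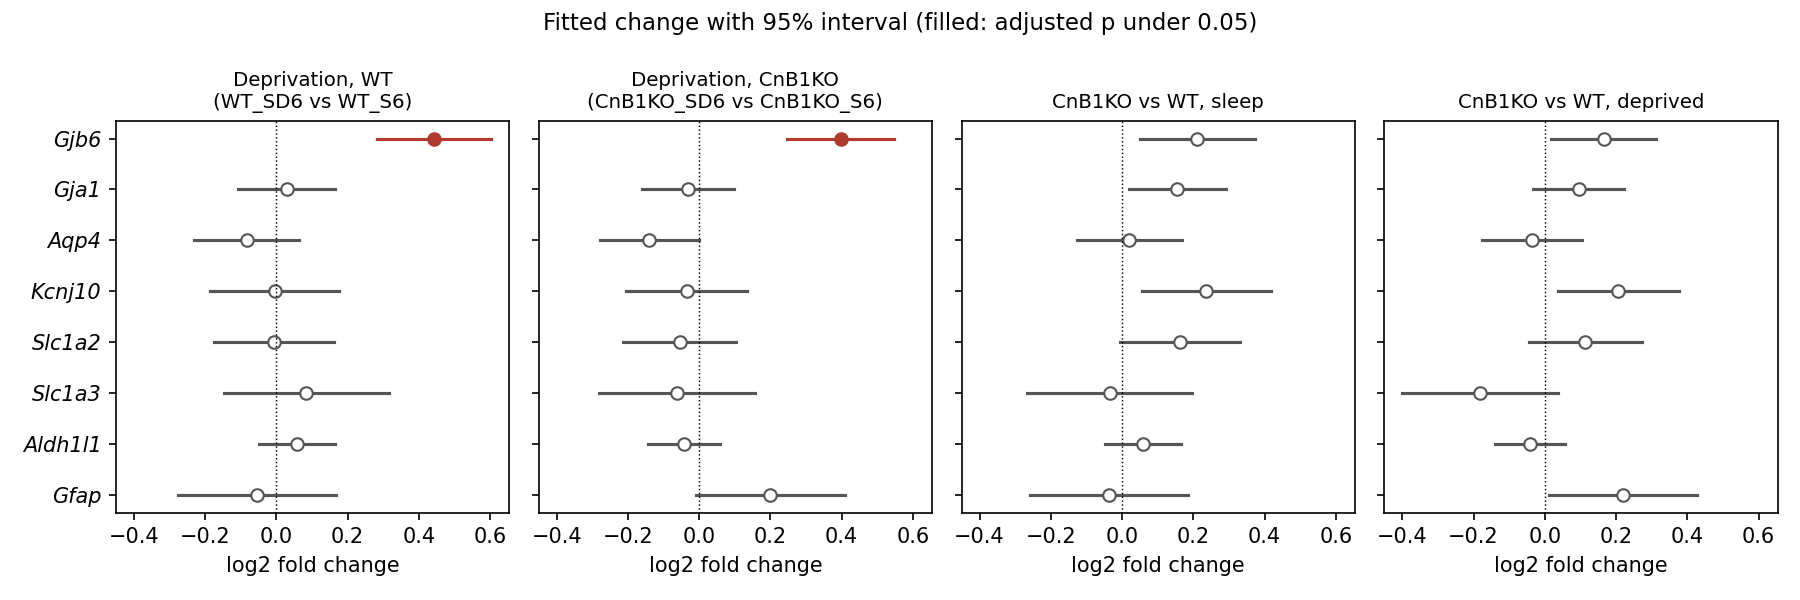
Fitted log2 change of each of the 8 genes in the 4 comparisons of 2 groups, with filled points where the adjusted p over all genes was under 0.05. Lines give the 95% interval formed from the edgeR log2 change and its SE. The intervals for Gjb6 lie above 0 in both deprivation comparisons, and those of the other 7 genes in WT include 0.

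Kcnj10 encodes the inward-rectifying potassium channel through which astrocytes buffer extracellular potassium, and oligodendrocytes express it too. It lies on chromosome 1 (172341210 to 172374085, plus strand). It measured 408.7, 375.4, 369.0 and 323.9 CPM in WT_S6 and 370.3, 339.8, 400.8, 365.2 and 364.1 CPM in WT_SD6. It measured 386.4, 463.0, 512.0, 372.3 and 445.2 CPM in CnB1KO_S6 and 388.9, 411.9, 424.7, 457.9 and 440.2 CPM in CnB1KO_SD6. The CnB1KO libraries reached higher, 3 of 5 being above every WT library after sleep and 4 of 5 after deprivation, and deprivation made little difference (log2 -0.00 ± 0.08 in WT and -0.04 ± 0.08 in CnB1KO, SE).

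Averaged over sleep states, Kcnj10 was 1.17-fold higher in CnB1KO (log2 0.22 ± 0.06 SE, edgeR adjusted p = 0.0449), the 1 of 8 members called where 3.09% of all genes were. This call was held by 11 of 32 alternatives, with log2 values from 0.07 to 0.25 and adjusted p from 0.0181 to 0.811. Among the 11 were no filter and a filter at 1 CPM, which kept all genes and so repeated the same fit. The call was lost in 13 of the 19 fits that each leave out 1 library (adjusted p up to 0.123), among them the fit without CnB1KO_S6 library 13, the shallowest and the highest for Kcnj10 (0.0765). With the oligodendrocyte marker score as a covariate the difference was 0.07 (adjusted p = 0.811), and with that of the other astrocyte markers also 0.07 (0.675). In each sleep state alone it did not pass (log2 0.24 and 0.21, edgeR adjusted p = 0.368 and 0.251). With the oligodendrocyte score as a covariate these differences were 0.16 after sleep and -0.01 after deprivation (adjusted p = 0.47 and 1.0).

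Markers of oligodendrocytes and endothelium stood higher in CnB1KO. Averaged over sleep states, where edgeR called 3.09% of all genes and their median log2 difference was 0.01, 3 of 12 oligodendrocyte markers were called higher and 12 of 12 had a log2 change above 0 (median 0.17). Their summed level ran, in WT, from 2106 to 2391 CPM after sleep and 1953 to 2198 after deprivation, and in CnB1KO from 2069 to 3196 and 2122 to 2597. Of 10 endothelial markers 6 were called higher, with sums in WT of 451.2 to 523.7 CPM after sleep and 433.2 to 567.9 after deprivation, and in CnB1KO of 572.2 to 700.6 and 535.2 to 692.4. Of 24 astrocyte markers outside the 8 members 22 had a change above 0 (median 0.13) and 1 was called, Htra1, a secreted protease, a share near that of all genes. Sums of the 24 in WT were 2461 to 2694 CPM after sleep and 2528 to 2767 after deprivation, and in CnB1KO 2545 to 3244 and 2667 to 2990. The part of these markers in the Kcnj10 difference was not tested beyond the covariate fits above.

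In both single comparisons of genotype, 0 of 8 members were called by edgeR, where 0.0485% of all genes were called after sleep and 0.132% after deprivation. At an unadjusted p under 0.05 there were 3 members after sleep (Gjb6, Gja1 and Kcnj10), where 10.1% of all genes were, and 3 after deprivation (Gjb6, Kcnj10 and Gfap), where 15.2% were, and limma voom and DESeq2 also called 0. The members' median log2 difference was 0.11 after sleep and 0.10 after deprivation, against 0.01 over all genes in both. Gjb6 was the 1 member of 8 whose genotypes did not overlap after sleep (4.32% of all genes did not), all 5 CnB1KO_S6 libraries being above all 4 WT_S6 libraries (1.16-fold, edgeR adjusted p = 0.368). No member was without overlap after deprivation (2.05% of all genes). The averaged difference for Gjb6 was 1.14-fold (log2 0.19 ± 0.05 SE, edgeR adjusted p = 0.0511), and 7 of 32 alternatives called it. These genotype comparisons share their libraries with the deprivation comparisons above.

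Of 16 measured genes of potassium, sodium and bicarbonate transport, 2 passed in any of the 7 comparisons by edgeR. Averaged over genotypes, where 4.69% of all genes were called, Lrrc8a, a subunit of the volume-regulated anion channel, was 1.2-fold higher after deprivation (adjusted p = 0.00811), and Kcnn2, a calcium-activated potassium channel, 1.17-fold higher (0.0271). Lrrc8a went from 35.07 ± 2.495 to 42.59 ± 3.147 CPM in WT and from 41.4 ± 4.318 to 48.56 ± 3.603 CPM in CnB1KO. The same 2 genes were higher in CnB1KO averaged over sleep states (3.09% of all genes called), Kcnn2 1.21-fold (adjusted p = 0.018) and Lrrc8a 1.16-fold (0.0399).

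Slc1a2 and Slc1a3 encode the 2 glutamate transporters that clear most synaptic glutamate, Slc1a2 being the main one of the forebrain and Slc1a3 of cerebellar Bergmann glia. Slc1a2 lies on chromosome 2 (102658659 to 102790784, plus strand) and Slc1a3 on chromosome 15 (8634124 to 8710764, minus strand). Slc1a2 measured 848.6, 829.7, 791.5 and 795.3 CPM in WT_S6, 831.8, 784.7, 850.4, 830.8 and 765.4 in WT_SD6, 853.2, 939.9, 1098.0, 783.3 and 893.6 in CnB1KO_S6, and 813.3, 864.3, 816.6, 938.3 and 963.1 in CnB1KO_SD6. The highest value was again that of CnB1KO_S6 library 13, and all groups overlapped. Slc1a2 differed by log2 -0.01 after deprivation in WT (95% interval -0.17 to 0.16) and by -0.05 in CnB1KO (-0.21 to 0.10), and by 0.14 ± 0.05 (SE) between genotypes averaged over sleep states (edgeR adjusted p = 0.141).

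Slc1a3 measured 277.2, 260.5, 284.7 and 296.0 CPM in WT_S6, 257.8, 307.0, 361.1, 324.5 and 232.9 in WT_SD6, 277.0, 287.1, 292.3, 273.3 and 236.3 in CnB1KO_S6, and 318.0, 255.7, 234.8, 239.2 and 259.4 in CnB1KO_SD6. Its group means, 261.4 to 296.6 CPM, lay within the spread of WT_SD6 (SD 51.48), with that group holding the lowest and the highest library of all 19. Its log2 change was 0.08 ± 0.11 after deprivation in WT and -0.06 ± 0.10 in CnB1KO, and its genotype difference -0.03 ± 0.11 after sleep and -0.18 ± 0.10 after deprivation (SE), with edgeR adjusted p of 0.866, 1.0, 0.929 and 0.399. Of 16 genes of glutamate and GABA uptake and glutamine handling, all measured, the 1 that passed was Slc38a5, a glutamine transporter, 1.68-fold lower after deprivation averaged over genotypes (edgeR adjusted p = 0.0134; 4.69% of all genes called). Slc38a5 fell from 8.464 ± 2.454 to 5.059 ± 1.637 CPM in WT and from 11.12 ± 1.755 to 6.491 ± 1.908 CPM in CnB1KO.

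Aldh1l1 and Gfap are the genes most used to mark astrocytes, the first a folate enzyme and the second the intermediate filament that rises in reactive astrocytes. Aldh1l1 lies on chromosome 6 (90486427 to 90600203, plus strand) and Gfap on chromosome 11 (102887336 to 102900912, minus strand). Aldh1l1 varied least of the 8 over the 19 libraries in CPM (CV 4.81%), though not in FPKM, where its CV was 7.62% and that of Gja1 6.77%. It stood at 82.99 to 90.63 CPM in sleeping and 87.16 to 93.88 in deprived WT, and at 84.34 to 97.56 in sleeping and 80.1 to 92.36 in deprived CnB1KO. Its 4 differences lay between log2 -0.04 and 0.06, none called by edgeR, and by FPKM between -0.12 (genotype after deprivation) and 0.04, none called by limma. Antisense Gm15756, which has no counts of its own, overlaps 11.05% of its exon length, and reads of the 2 cannot be told apart in libraries without strand.

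Gfap measured 145.0, 129.6, 132.6 and 164.1 CPM in WT_S6, 115.5, 159.8, 132.0, 140.6 and 139.5 in WT_SD6, 130.0, 163.6, 137.3, 145.4 and 120.4 in CnB1KO_S6, and 170.2, 185.4, 161.5, 141.5 and 140.8 in CnB1KO_SD6. The 2 highest libraries were both of CnB1KO_SD6, yet that group overlapped each of the others. Gfap changed by log2 -0.05 ± 0.10 after deprivation in WT and by 0.20 ± 0.10 in CnB1KO (SE, edgeR adjusted p = 0.915 and 0.537). The difference between those responses was log2 0.25 ± 0.14 (SE, 95% interval -0.05 to 0.56, edgeR adjusted p = 1.0). Of 14 measured filament and reactive astrocyte genes 2 passed in any of the 7 comparisons. Osmr, a cytokine receptor subunit, and Nes, the filament nestin, were higher in CnB1KO averaged over sleep states (1.51-fold and 1.3-fold, edgeR adjusted p = 0.0235 and 0.0398), where 3.09% of all genes were called. In that comparison 6 of 10 endothelial markers were also called higher, and their part in the differences of Osmr and Nes was not tested. Nes stood at 33.21 ± 6.144 CPM in WT_S6 and 47.3 ± 7.278 in CnB1KO_S6, but after deprivation at 29.36 ± 4.524 in WT and 34.67 ± 5.034 in CnB1KO (SD). Its ranges overlapped in both sleep states. Osmr stood at 7.645 ± 1.357 and 11.68 ± 1.242 CPM after sleep, with ranges apart, and at 9.205 ± 1.917 and 13.63 ± 3.516 after deprivation, with overlapping ranges.

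Among the 24 other astrocyte markers, Htra1 passed after deprivation in WT (1.29-fold, edgeR adjusted p = 0.0133) and in CnB1KO (1.25-fold, 0.0266), the 1 of 24 in each, where 1.14% and 0.692% of all genes were called. Htra1 stood at 95.93 ± 4.687 CPM in WT_S6, 124.1 ± 11.7 in WT_SD6, 112.8 ± 7.465 in CnB1KO_S6 and 141.2 ± 11.18 in CnB1KO_SD6. Averaged over genotypes, Cbs (1.26-fold, adjusted p = 0.00272) and the coagulation factor gene F3 (1.17-fold, 0.0203) were also higher by edgeR. The median over the 24 was log2 0.02 after deprivation in WT and 0.01 in CnB1KO, and over the 8 members 0.01 and -0.04. Of 20 genes of astrocyte fuel metabolism, 3 were higher after deprivation averaged over genotypes, against 4.69% of all genes called in either direction: the glucose transporter gene Slc2a1, which endothelium also expresses (1.18-fold, edgeR adjusted p = 0.0212), the glycogen regulator Ppp1r3g (1.92-fold, 0.0323) and the metallothionein Mt2 (1.29-fold, 0.0329). Ppp1r3g and Mt2 had low levels. Ppp1r3g went from 3.108 ± 1.485 to 5.637 ± 2.223 CPM in WT, with overlapping ranges, and from 3.703 ± 0.5112 to 7.344 ± 3.392 CPM in CnB1KO, with ranges apart. Mt2 went from 4.522 ± 0.3443 to 6.007 ± 0.8323 CPM in WT, with ranges apart, and from 5.313 ± 0.6075 to 6.746 ± 0.9612 CPM in CnB1KO, with overlapping ranges. Summed oligodendrocyte markers were lower in deprived WT libraries (1953 to 2198 CPM) than in most sleeping ones (2106 to 2391 CPM), with 2 of 12 called lower (1.14% of all genes called), and with their score as a covariate Gjb6 changed by log2 0.47 in WT (edgeR adjusted p = 0.0484).

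The 8 genes did not vary as 1 block over the 19 libraries. Of 28 pairs, 4 had a Pearson correlation of log2 CPM with an adjusted p under 0.05 in permutation tests. Gja1, Kcnj10 and Slc1a2 varied together. Pearson's r was 0.931 for Gja1 with Slc1a2 (Spearman's rho 0.812), 0.925 for Gja1 with Kcnj10 (rho 0.856) and 0.881 for Kcnj10 with Slc1a2 (rho 0.839). Each had a permutation p of 1e-05 for r, the smallest possible, and an adjusted p of 9.33e-05, and for rho the permutation p was 5e-05, 1e-05 and 4e-05. After the group means were taken out r was 0.91, 0.896 and 0.837, and without the 2 libraries farthest from the median 0.886, 0.885 and 0.859. The other pair was Aqp4 with Slc1a3 (r = 0.65, rho = 0.667, permutation p = 0.00301 and 0.00271, adjusted p of r = 0.0211), at 0.792 within groups and 0.513 without the 2 farthest libraries. Gjb6 was in none of the 4, with r of 0.281 to Gja1 (permutation p = 0.25) and rho of 0.43 (permutation p = 0.068). Its r to Gja1 was 0.258 within groups and 0.209 without the 2 farthest libraries, but 0.528 without CnB1KO_S6 library 13.

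**Figure D4:**
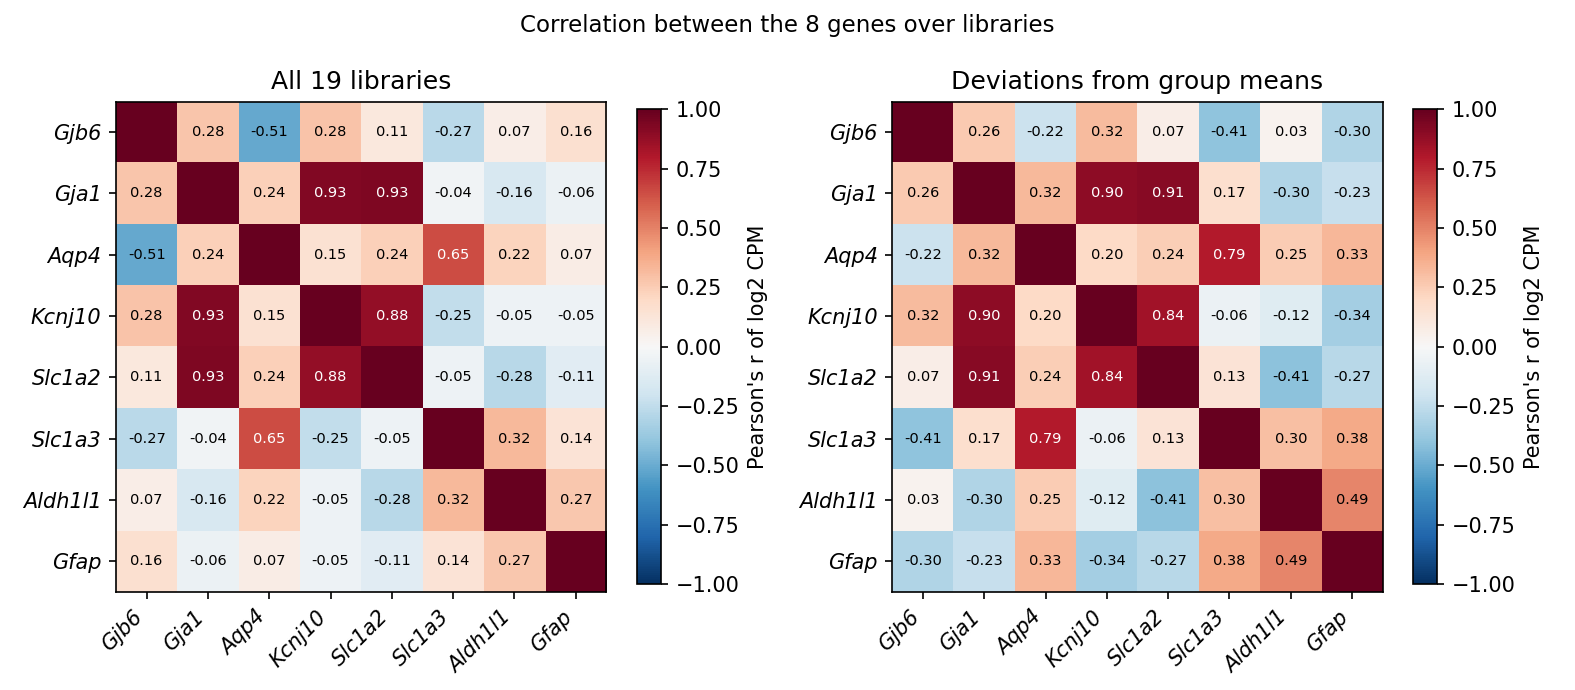
Pearson's r of log2 CPM for each pair of the 8 genes over 19 libraries (left) and over deviations from the group means (right), red for positive and blue for negative. Gja1, Kcnj10 and Slc1a2 form a block with r of 0.881 to 0.931 over all libraries, and Aqp4 with Slc1a3 stands apart from it.

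The same 3 genes also shared a dependence on depth. Against the log2 total of the library, log2 counts rose with a slope of 0.69 for Gja1, 0.61 for Kcnj10 and 0.61 for Slc1a2, against 0.998 for Gjb6, 0.97 for Aqp4, 0.98 for Slc1a3, 1.24 for Aldh1l1 and 1.18 for Gfap, where 1 would be proportional to depth. Kcnj10 and Slc1a2 are among the densest genes counted, with 468.8 and 412.5 counts per kilobase of exon on average, and over the 165 genes at 400 or more the median slope was 0.50. Gja1, at 123.5 counts per kilobase, is not among them by this measure, which takes all annotated exons of a gene together (10257 bases for Gja1). By deposited FPKM in WT_S6 Gja1 stood at 53.42, Kcnj10 at 59.54 and Slc1a2 at 66.62, so its place depends on the measure. CnB1KO_S6 library 13, with the lowest total, was the highest of all 19 for each of the 3, and without it r was 0.871 for Gja1 with Slc1a2, 0.909 for Gja1 with Kcnj10 and 0.839 for Kcnj10 with Slc1a2. The part of depth in this correlation was not tested.

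Against marker scores, the mean log2 CPM of a list, 96 relations of 8 genes with 12 scores were computed and 19 had an adjusted p under 0.05. Gja1, Kcnj10 and Slc1a2 each passed with 3 or more scores, and none of the 3 went with 1 cell type alone. With the neuronal score Gja1 and Slc1a2 had r = 0.893, rho = 0.914 and r = 0.9, rho = 0.812 (permutation p of r = 1e-05 for both, the smallest possible, and of rho = 1e-05 and 7e-05, adjusted p of r = 0.00048), at 0.893 and 0.881 within groups and 0.844 and 0.782 without the 2 farthest libraries. Kcnj10 also passed with it (r = 0.724, rho = 0.709, permutation p = 0.00029 and 0.00087, adjusted p of r = 0.00348; 0.665 within groups, 0.596 without the 2 farthest). With the other astrocyte markers Kcnj10 had r = 0.772 and rho = 0.807 (permutation p = 0.0001 and 6e-05, adjusted p of r = 0.00192; 0.669 within groups, 0.7 without the 2 farthest). Gja1 had r = 0.738 and rho = 0.816 with them (permutation p = 0.00015 and 8e-05, adjusted p of r = 0.0024; 0.648 and 0.681), and Slc1a2 r = 0.613 and rho = 0.586 (permutation p = 0.00365 and 0.00937, adjusted p of r = 0.0234; 0.515 and 0.554). With the oligodendrocyte score Kcnj10 had r = 0.769 and rho = 0.767 (permutation p = 8e-05 and 0.00014, adjusted p of r = 0.00192; 0.84 within groups, 0.688 without the 2 farthest). Slc1a2 had r = 0.735 and rho = 0.635 with it (permutation p = 0.00025 and 0.00434, adjusted p of r = 0.00343; 0.769 and 0.663), and Gja1 r = 0.624 and rho = 0.498 (permutation p = 0.00434 and 0.0308, adjusted p of r = 0.026; 0.671 and 0.563). Kcnj10 passed with 3 more scores, those of blood (r = 0.701, permutation adjusted p = 0.00672), endothelium (0.603, 0.0347) and cerebellar granule cells (-0.594, 0.0383), and Slc1a2 with that of granule cells (-0.589, 0.0383). Within groups these r were, in the same order, 0.593, 0.234, -0.532 and -0.537 (permutation adjusted p = 0.0391, 0.578, 0.0887 and 0.0838), so only the relation with blood passed there. The neuronal score was highest in CnB1KO_S6 library 13, of the lowest total, and lowest in WT_SD6 library 10, of the highest total. The part of depth in these relations was not tested.

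Slc1a3 was high where Bergmann glia markers were high (r = 0.708, rho = 0.679, permutation p = 0.00077 and 0.00196, adjusted p of r = 0.00672; 0.691 within groups, 0.791 without the 2 farthest). It was low where those of oligodendrocyte precursors (r = -0.85, rho = -0.798, permutation p = 2e-05 and 9e-05, adjusted p of r = 0.00064; -0.847 within groups, -0.718 without the 2 farthest) and of noradrenergic neurons were high (r = -0.735, rho = -0.591, permutation p = 0.00034 and 0.009, adjusted p of r = 0.00363; -0.702 within groups, -0.598 without the 2 farthest). Slc1a3 also passed with the scores of microglia (r = -0.686, permutation adjusted p = 0.00945; -0.359 without the 2 farthest libraries, on which it rests) and of granule cells (0.681, 0.00945), and Aqp4 with that of noradrenergic neurons (-0.633, 0.0226). Summed Bergmann glia markers ran from 145.2 to 450.7 CPM over the 19 libraries and precursor markers from 341.7 to 503.1 CPM. The part of the dissected area in the spread of Slc1a3 was not tested.

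**Figure D5:**
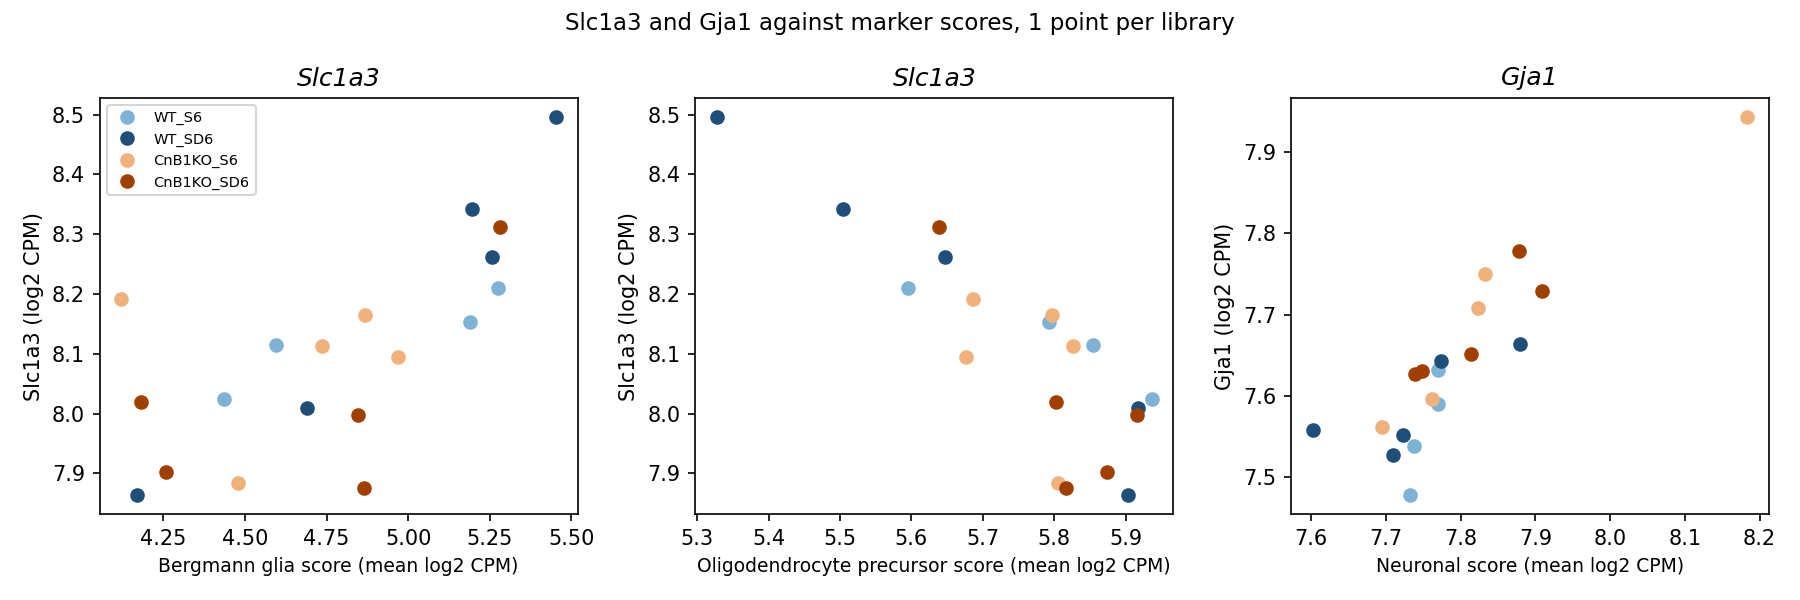
Level of Slc1a3 (log2 CPM) against the Bergmann glia and oligodendrocyte precursor scores, and of Gja1 against the neuronal score (each score the mean log2 CPM of its markers), with 1 point per library coloured by group. Slc1a3 rises with the first score (r = 0.708) and falls with the second (r = -0.85), and the point at the upper right of the Gja1 panel is CnB1KO_S6 library 13.

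The 5 genes most like the mean of the 7 members other than Gjb6, of 13311 ranked, were Slc32a1 (r = 0.882), Mlc1 (0.873), Gpr37l1 (0.862), Gad1 (0.86) and Clcn4 (0.855). Mlc1 and Gpr37l1 are astrocyte membrane proteins, whereas Slc32a1 and Gad1 belong to inhibitory neurons, and none of the 5 passed in either deprivation comparison (edgeR adjusted p = 0.667 to 1.0). None of the 5 was among the 5 most like Gjb6.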

How the data were processed

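RNA of 19 locus coeruleus libraries was analysed. Counts per gene symbol were deposited by the authors as whole numbers for all libraries in 1 table, and FPKM were deposited in 4 tables, 1 per group, so FPKM set across groups assume the same processing. Per the submitters' processing notes the tools were HTSeq 2.0.4, StringTie 2.2.1, SAMtools 1.6, Picard 2.18.29, Trim Galore 0.6.10 and FastQC 0.12.1, with GRCm38 as the build. Those notes give no roles, and the aligner, the annotation and whether duplicates were removed were not given in the sources used here. Per the labels' protocols the libraries did not keep strand.

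TMM scaling preceded edgeR 4.0.16 (R 4.3.3; quasi-likelihood F test, 2-sided, 1 fit of 4 groups, 15 residual degrees of freedom). Calls were made where the p adjusted by Benjamini-Hochberg over 14443 genes was under 0.05. The filter filterByExpr kept all of them. Limma 3.58.1 and DESeq2 1.42.0 served as alternatives, limma also on log2(FPKM + 0.1) over 18734 symbols. The edgeR script was tested on simulated data. Permutation tests of correlations used 100000 permutations. Depth is given as total counts, and no share of a single library is reported. The labels give no batch, so no within-batch value could be had.

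The members, lists and comparisons were chosen with earlier results of these data known. Named genes were the 8 members, Ppp3r1, up to 4 genes per comparison with an adjusted p under 0.05 from each related list and the other astrocyte markers, and the 5 genes most like Gjb6 and most like the mean of the others, among genes of mean log2 CPM of at least 1 without provisional symbols. Other lists are given by count and level. The connexin ratio and slopes used the deposited counts without scaling.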

Additional observations from a re-analysis of the deposited data

How the results depend on the processing

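The rise of Gjb6 kept its direction in all 33 alternatives of each deprivation comparison, and was called in 32 of them in WT (log2 0.40 to 0.50) and 33 in CnB1KO (0.36 to 0.43). With only the groups compared in the fit, 0 members were called in WT, on fewer libraries. Averaged over genotypes, 2 members were called with the noradrenergic score as a covariate. For CnB1KO averaged over sleep states, the 1 member called became 2 with DESeq2 and 0 with DESeq2 size factors, with the library total as a covariate, with FPKM, and with each of the 4 marker scores, and 0 to 2 when 1 library was left out. The log2 ratio of Gjb6 to Gja1 after deprivation in WT was 0.36 to 0.45 without 1 library (adjusted p = 0.0571 to 0.0714, exact permutation test with fewer regroupings). Without a WT_SD6 library an adjusted p under 0.05 could not be reached in that test. After sleep the genotype difference in the log2 ratio was 0.0285 to 0.1245. Signs turned, with the cause not tested, for uncalled differences of log2 0.06 to 0.21. Between genotypes after sleep, that of Aldh1l1 turned by FPKM (-0.0052). Between genotypes after deprivation, that of Gja1 turned with the oligodendrocyte score (-0.0281) and with the other astrocyte markers (-0.0153). In the same comparison those of Kcnj10 (-0.0075) and Slc1a2 (-0.0612) turned with the oligodendrocyte score. For deprivation averaged over genotypes, that of Gfap turned with the oligodendrocyte score (-0.0296). Changes smaller than their SE were not followed for sign. Over all genes, the count called ranged from 35 to 402 after deprivation in WT (165 in the report), 54 to 165 in CnB1KO (100), 366 to 1169 averaged over genotypes (678), 3 to 19 and 4 to 220 between genotypes after sleep (7) and deprivation (19), and 8 to 1088 averaged over sleep states (447). Leaving out CnB1KO_S6 library 13 and WT_SD6 library 10 together was chosen after seeing the data and kept the Gjb6 calls (log2 0.40 in WT). No filter and a filter at 1 CPM kept all genes, so both gave the same values. The test for members without counts, and its alternatives, did not apply. No paired analysis was possible because the columns of the deposited tables carry no replicate number of the labels. The intervals did not narrow with depth across the members: for deprivation in WT the SE was 0.079 for Slc1a2 (4023 to 6194 counts a library), 0.075 for Gjb6 (300 to 884) and 0.1086 for Slc1a3 (1071 to 2369).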
